A study of Mus musculus with 23 samples.

Results

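The cytosolic ribosomal protein genes were followed in quadriceps, a thigh muscle that extends the knee, of male and female mice treated with corticosterone. They were chosen by name: every gene whose symbol starts with Rpl or Rps followed by a digit, together with Rplp0, Rplp1, Rplp2 and Rpsa. The choice was made with earlier results of these data known. Pseudogenes named as such, the Rps6k kinases and genes with 20 or fewer counts in more than 19 of the 23 mice were left out, which gave 85 of the 55573 gene IDs counted. Of 93 genes that the names admitted, 8 fell below the count limit, namely Rpl10l, Rpl24, Rpl32l, Rpl36al, Rpl39l, Rps10, Rps12l1 and Rps3a3. The gene nearest to the limit on the inside was Rpl6l with 7 to 26 counts per mouse, and on the outside Rps10 had 6 to 29. Of the 85 genes, 50 carry a name of the large subunit and 35 a name of the small subunit, 81 are annotated as protein-coding, and they lie on 19 chromosomes. By what they encode, 75 are core ribosomal proteins (45 of the large and 30 of the small subunit), 5 are paralogs of a core gene, 4 are further gene copies, and Rps19bp1 encodes a protein that binds ribosomal protein S19.

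RNA was taken from mice labelled C57Bl6, named as the C57BL/6J substrain in the study's methods, of 8 to 10 weeks at the start, in 4 groups: 6 vehicle-treated males (male VEH), 6 corticosterone-treated males (male CORT), 6 vehicle-treated females (female VEH) and 5 corticosterone-treated females (female CORT). Corticosterone, the main glucocorticoid of mice, came for 14 days from a slow-release pellet under the skin that held 50 mg corticosterone and 50 mg cholesterol, while vehicle pellets held 100 mg cholesterol. All mice were fasted for 5 hours before collection. M and F in a mouse's name stand for its sex, followed by the animal's number. It is not stated whether the sexes were processed together, so that sex and batch cannot be told apart.

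The ribosome translates messenger RNA into protein and is built from a large and a small subunit, each made of ribosomal RNA and many proteins that are needed in about equal numbers. Ribosomal protein genes are among the most highly expressed genes of most cells, and in muscle the number of ribosomes helps set how much protein the fibers can make. Their messenger RNAs start with a run of pyrimidines, the 5′ terminal oligopyrimidine tract, through which growth signals control how well they are translated.

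Each mouse had 20904150 to 21984477 counts on genes. Muscle markers such as Acta1 and Ckm were high throughout, with a summed level of the 9 markers of 83333 to 239191 counts per 1000000 (CPM, scaled by TMM, edgeR's trimmed mean of M-values), so the tissue label held in all 23 mice. Other markers moved with the groups. The summed level of 7 fibroblast markers was 1011 to 1495 CPM in male VEH and 367 to 533 CPM in male CORT mice, and that of 5 erythrocyte markers was 104 to 204 against 189 to 674 CPM. In female CORT mice 7 adipocyte markers ranged from 270 to 6899 CPM, and 7 hepatocyte markers exceeded 1000 CPM in M9, M8, M12, F6 and F10. Their part in the results was not tested, except where a marker level is named below as a covariate. In bulk tissue, fewer cells of a type and less RNA per cell cannot be told apart.

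The starts of some of these genes show a run of pyrimidines. In windows from 10 bases before to 20 bases from the annotated start (RefSeq, GRCm38.p6), a run of at least 6 consecutive C or T letters with at least 1 C was searched on the strand of the gene, starting within 10 bases of the annotated start. The first 4 windows belong to genes that rose in male CORT mice and hold a run, the next is a gene that rose and holds none within that distance, the following pair holds a run but did not pass the test, and the last 3 are paralogs. Capitals mark the run.
Rps27 (chr3:90213629-90213658, minus strand): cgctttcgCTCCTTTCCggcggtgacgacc
Rps26 (chr10:128626487-128626516, minus strand): gcaagccgccggaTCCTCTTTCgagtcttg
Rpl18 (chr7:45718061-45718090, plus strand): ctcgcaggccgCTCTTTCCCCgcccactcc
Rpl28 (chr7:4792955-4792984, plus strand): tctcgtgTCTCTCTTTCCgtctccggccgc
Rplp0 (chr5:115559457-115559486, plus strand): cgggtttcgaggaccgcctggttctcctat
Rps6 (chr4:86857348-86857377, minus strand): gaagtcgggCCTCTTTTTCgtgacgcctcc
Rpl15 (chr14:18270967-18270996, minus strand): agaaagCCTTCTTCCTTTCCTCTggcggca
Rpl22l1 (chr3:28805498-28805527, plus strand): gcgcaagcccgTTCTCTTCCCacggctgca
Rpl3l (chr17:24727816-24727845, plus strand): ttctagctctgtcatttgacctctggtgcc
Rpl7l1 (chr17:46782637-46782666, minus strand): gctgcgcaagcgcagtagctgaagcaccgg

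The table of gene starts held 62 of the 85 genes, and 30 of these (48.4%) had such a run, against 7029 of 27025 genes (26.0%) in the whole table. Among core genes it was 28 of 55, and among the paralogs, copies and Rps19bp1 2 of 7. The share did not separate the genes by their response: 11 of 22 genes that rose in male CORT mice had a run, as did 19 of 40 genes that did not pass. Only runs that begin within 10 bases of a listed start were counted. A longer run that begins further upstream, as at Rpl7a, or one that begins further downstream, as in the window of Rplp0, was not, and a gene without a counted run is not thereby shown to lack the tract.

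The genes spanned a wide range of levels. Per kilobase of transcript, the only scale on which genes are compared here, the mean level over all 23 mice ran from 0.936 CPM per kilobase for Rpl6l to 1139 for Rplp1, with a median of 245, and 70 of 85 genes exceeded 100. The highest levels were those of Rplp1, a protein of the stalk that recruits elongation factors (1139), Rps27 (739), Rps15 (686), Rps2 (681) and Rplp0, the base of the stalk (675). The lowest were Rpl6l, the copies Rps3a2 (2.14) and Rpl37rt (4.14), the paralog Rps4l (3.38) and the core gene Rpl13a (4.57). For Rpl13a, 35.4% of the exon length is shared on the same strand with other annotated genes. Among genes left out, it is 47.0% for Rpl24 (0 to 6 counts), 24.5% for Rpl36al (0 to 10) and 20.6% for Rps10 (6 to 29). Those overlapping genes had no count in any mouse, and read pairs that fit more than 1 gene were not counted. The levels of Rpl13a, Rpl24, Rpl36al and Rps10 are therefore uncertain. Named pseudogenes exist for 60 of the 85 genes, and read pairs that align to several places were likewise not counted, at 5.63% to 10.5% of the pairs per mouse.

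As a share of all gene counts, the 85 genes took 1.49% to 2.11% in male VEH mice (median 1.73%) and 1.78% to 2.39% in male CORT mice (median 2.08%). In females the share was 1.70% to 2.04% in VEH mice (median 1.84%), and 2.20%, 1.88%, 1.96%, 2.40% and 2.02% in the CORT mice F2, F4, F6, F8 and F10. In both sexes the groups overlapped. The share that could not be placed uniquely was lower in male CORT mice, at 5.63% to 8.80% of the read pairs, than in male VEH mice, at 8.09% to 10.5%, and its part in these levels was not tested.

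Relative to the mean of the VEH mice of the same sex, the median gene stood at a log2 difference of 0.12 to 0.41 in the 6 male CORT mice, and at -0.21 to 0.29 in the male VEH mice themselves. The genes moved together within a mouse: in the VEH male M3, which ranked highest in its group, 83 of the 84 genes tested lay above the VEH mean, and in M7 only 3 did. In female CORT mice the median gene stood at 0.40 in F8 and 0.22 in F2, close to 0 in F4 (0.06), and below 0 in F6 (-0.10) and F10 (-0.12). Slow fiber markers differed in the same mice, with a summed level of 3203 CPM in M3 and 21.4 CPM in M7. That order did not hold in all mice. F3 had 4562 CPM with its median gene at -0.10, and M8 had 2.65 CPM with its median gene at 0.41. F6 and F10 had the lowest muscle marker levels of the female CORT mice, 105322 and 83333 CPM, and adipocyte markers at 6899 and 3272 CPM, while F8 had 270, F4 1091 and F2 3633 CPM.

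**Figure D1:**
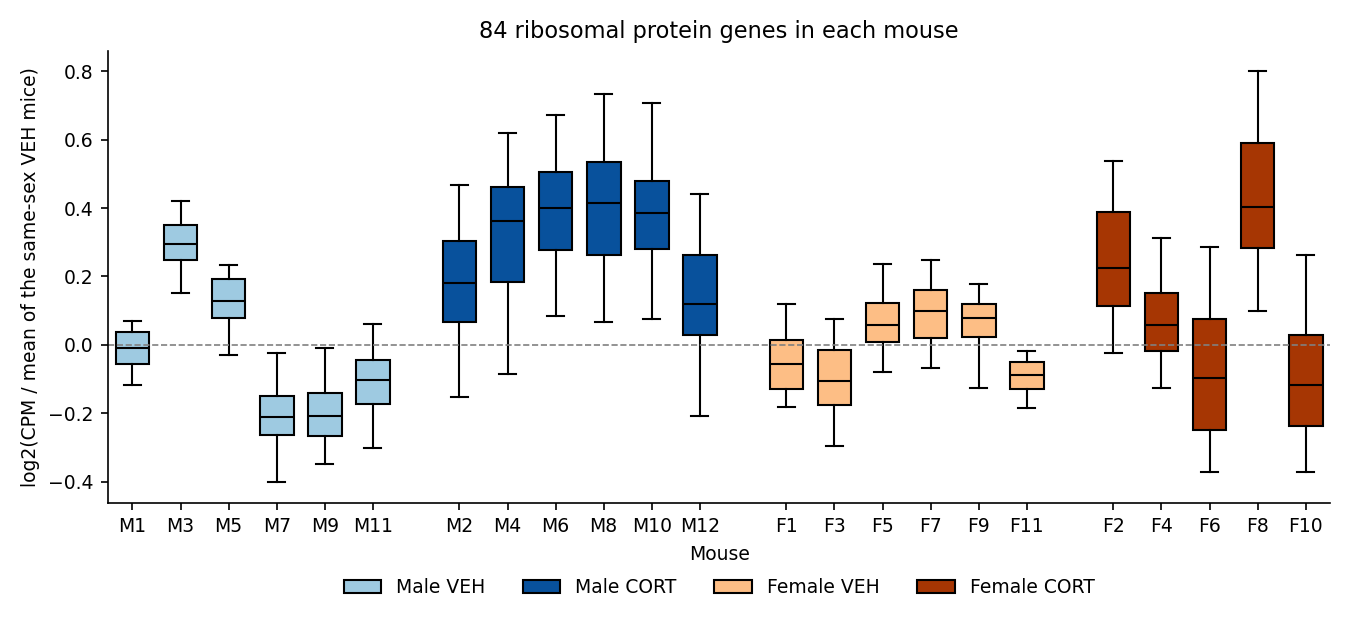
Log2 ratio of each of 84 ribosomal protein genes to its mean in the same-sex VEH mice, as 1 box per mouse (line: median; box: quartiles; whiskers: 5th to 95th percentile of the genes), with mice grouped by sex and treatment. The medians of the 6 male CORT mice lie between 0.12 and 0.41, the VEH male M3 stands at 0.29, and the 5 female CORT mice spread from -0.12 to 0.40.

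With corticosterone, ribosomal protein genes were higher in males. Of 84 genes tested, 30 rose and 0 fell between male CORT and male VEH mice at an adjusted p under 0.01 (edgeR quasi-likelihood test, Benjamini-Hochberg over 13049 genes), where the background over all genes was 13.2% higher and 13.1% lower. The rises were modest, from 1.28-fold (Rpl27a) to 1.80-fold (Rps27rt), and the median log2 fold change over the 84 genes was 0.31 beside -0.02 over all genes tested. In 80 of 84 genes the estimate was positive, beside 48.1% of all genes tested. Passing genes made up 15 of the 30 core small subunit genes (median log2 fold change 0.36), 13 of the 45 core large subunit genes (0.30), 2 of 3 copies and 0 of 5 paralogs. In 12 genes every male CORT mouse lay above every male VEH mouse, beside a background of 10.8% of all genes, among them Rpl4, Rpl10a, Rpl18, Rpl28, Rpl29, Rplp0, Rps2, Rps3a2, Rps20, Rps26 and Rpsa. Fibroblast markers fell in the same comparison (5 of 7 passed), and their part in the rise of the ribosomal protein genes was not tested. With the slow fiber or the adipocyte marker level as a covariate, added after seeing the data, 37 and 29 genes rose. Over all genes it was 1873 and 1864 of 13049.

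The count varied with single mice. Without M3 it was 42, and without M11 20, where 1497 and 1476 of all 13049 genes were higher. In 14 genes the rise passed in all 34 other analyses, among them Rpl4, Rpl7a, Rpl10a, Rpl18, Rpl28, Rplp0, Rps2, Rps15, Rps20, Rps21, Rps26, Rps27rt and Rps28.

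Among small subunit genes, Rps2, which encodes a protein near the entry of the messenger RNA channel, had the largest rise of a core gene. Its level was 459 to 642 CPM in male VEH mice (median 529) and 816 to 1122 CPM in male CORT mice (median 858). The groups did not overlap, and the log2 fold change was 0.74 ± 0.13 (SE, adjusted p = 0.000107, edgeR). In females it was 623 to 730 CPM with vehicle and 1020 (F2), 798 (F4), 734 (F6), 1268 (F8) and 711 CPM (F10) with corticosterone. F10 alone lay within the VEH range, and the log2 fold change of 0.44 ± 0.13 did not pass (adjusted p = 0.0181, edgeR).

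Rps20, a protein of the head of the small subunit, rose in males from a median of 227 CPM (201 to 298) to 391 CPM (306 to 408), again without overlap. The log2 fold change was 0.65 ± 0.12 (adjusted p = 0.000315, edgeR), and that in females 0.26 ± 0.13 (adjusted p = 0.142, edgeR).

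The small proteins Rps21 and Rps28 each rose by 0.60 on the log2 scale in males (SE 0.12 and 0.14, adjusted p = 0.000438 and 0.0014, edgeR). The groups overlapped in both through the VEH mouse M3. For Rps21, M3 had 188.6 CPM and only M12, with 188.1 CPM, was lower among the CORT mice. For Rps28, M3 had 180.8 CPM and lay above 3 of the 6 CORT mice, M12 (172 CPM), M2 (179.8 CPM) and M4 (180.3 CPM). Rps15 rose by 0.44 ± 0.11 (adjusted p = 0.00252, edgeR). Rps6, the small subunit protein that S6 kinases phosphorylate, did not pass in either sex, with 97.1 to 137 CPM in male VEH, 103 to 146 CPM in male CORT, 113 to 131 CPM in female VEH and 97.6 to 133 CPM in female CORT mice. Its log2 fold changes were 0.17 ± 0.10 in males and -0.13 ± 0.10 in females, and the groups overlapped in both.

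Rpsa, a small subunit protein also known as a laminin receptor, was set apart in both sexes, as was Rplp0. Over all genes tested, every CORT mouse lay above every VEH mouse in 10.8% in males and in 3.38% in females. The share of all genes set apart in both sexes at once was not counted. Male VEH mice had 464 to 631 CPM and male CORT mice 654 to 753 CPM. Female VEH mice had 525.7 to 648.3 CPM and the CORT females 796, 730, 655, 977 and 664 CPM in the order F2 to F10. No CORT mouse of either sex reached down into its VEH group. The log2 fold change was 0.41 ± 0.10 in males (adjusted p = 0.0028, edgeR) and 0.36 ± 0.11 in females (adjusted p = 0.0166, edgeR), so that only the male rise passed.

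On the large subunit, 1 of the 3 genes of the stalk passed in males. Rplp0 had 589 to 918 CPM in male VEH mice (median 663) and 989 to 1228 CPM in male CORT mice (median 1127), with a log2 fold change of 0.65 ± 0.13 (adjusted p = 0.000334, edgeR). In females it had 711 to 856 CPM with vehicle and 1136, 1023, 879, 1469 and 891 CPM with corticosterone. Both pairs of groups were apart, and the female log2 fold change of 0.46 ± 0.13 had the smallest adjusted p of all these genes in that sex (0.0127, edgeR). Rplp1 and Rplp2, which form the flexible arms of the stalk, did not pass in males (log2 fold changes 0.23 ± 0.11 and 0.35 ± 0.11, adjusted p = 0.0998 and 0.0167, edgeR). Whether the 3 genes differ in their response was not tested.

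Rpl4 and Rpl7a, large subunit proteins of which Rpl4 reaches into the exit tunnel for the new chain, had the largest differences between the male and female log2 fold changes among core genes. Rpl4 had 612 to 753 CPM in male VEH and 807 to 1015 CPM in male CORT mice, and rose by 0.44 ± 0.10 on the log2 scale (adjusted p = 0.00114, edgeR). In females it had 617 to 785 CPM with vehicle and 721, 730, 613, 760 and 516 CPM with corticosterone, a log2 difference of -0.04 ± 0.10. F2, F4 and F8 lay within the VEH range, and F6 and F10 below it. Rpl7a rose in males by 0.53 ± 0.09 (268 to 344 CPM with vehicle, 342 to 499 CPM with corticosterone, adjusted p = 0.000144, edgeR), and its mean was 328 CPM in both female groups.

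Rpl5 and Rpl11, which join 5S ribosomal RNA in a particle that can also bind the p53 regulator Mdm2, did not pass in males or females. Rpl5 had 201 to 267 CPM in male VEH and 238 to 315 CPM in male CORT mice, with log2 fold changes of 0.27 ± 0.10 in males and -0.09 ± 0.11 in females. Rpl11 had 129 to 171 and 158 to 206 CPM in the male groups, with log2 fold changes of 0.29 ± 0.10 and 0.16 ± 0.10. The male groups overlapped in both genes. The X-linked genes with a paralog in the lists, Rpl10, Rpl36a, Rpl39 and Rps4x, did not pass either, with log2 fold changes of 0.26, 0.03, 0.09 and 0.17 in males.

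**Figure D2:**
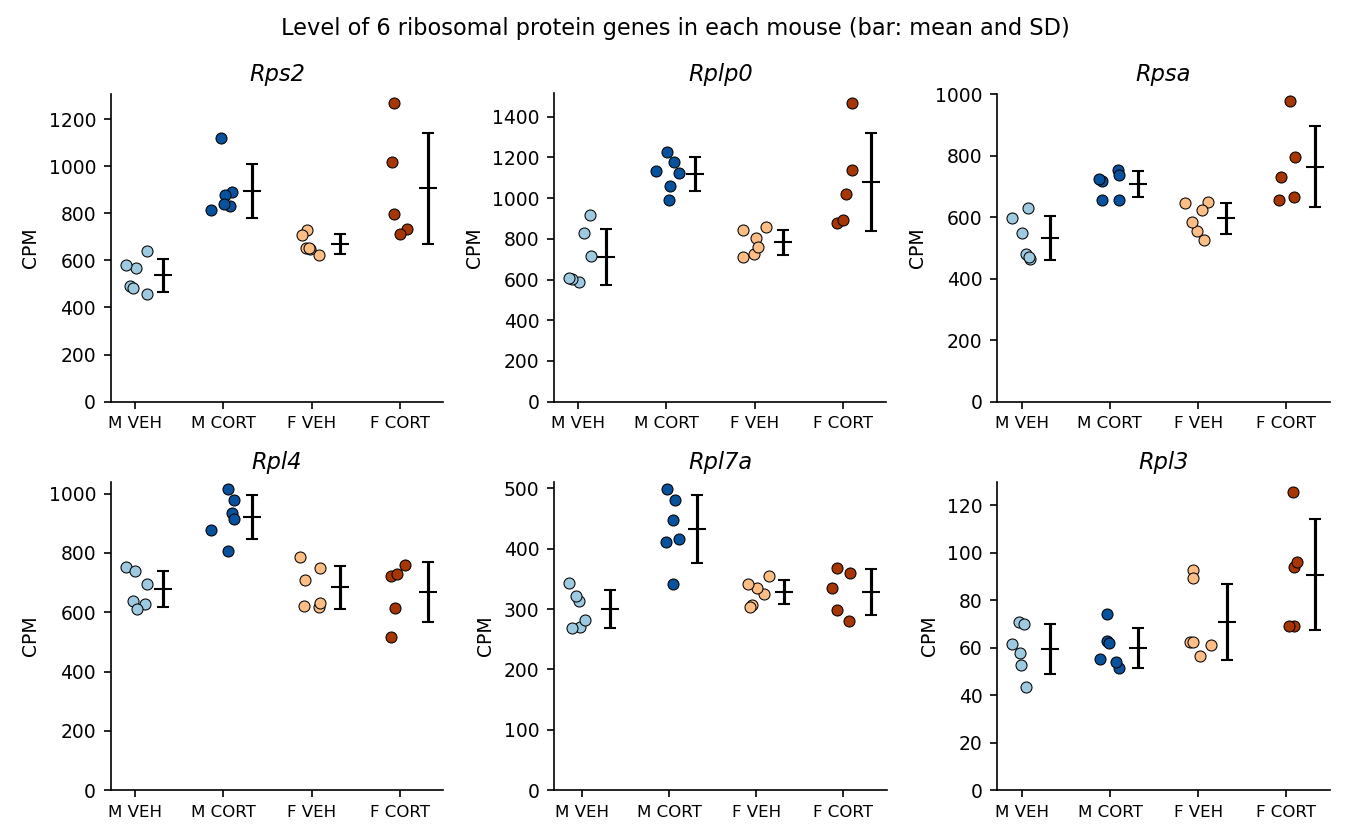
CPM of 6 ribosomal protein genes in each mouse (points) with the mean and SD of each group (bars), for male (M) and female (F) VEH and CORT mice. In males the CORT mice lie above all VEH mice for Rps2, Rplp0, Rpsa and Rpl4. In females this holds for Rplp0 and Rpsa, while Rpl3 overlaps in both sexes.

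Of the copies, Rps27rt, a single-exon copy of Rps27, had the largest log2 fold change in males, 0.85 ± 0.21 (adjusted p = 0.00264, edgeR), but at a low level: 0.956 to 2.63 CPM in male VEH and 2.35 to 3.84 CPM in male CORT mice. The groups overlapped through M9. In females it had 1.12 to 1.54 CPM with vehicle and 1.86, 1.64, 1.74, 2.95 and 2.46 CPM with corticosterone, without overlap, at 0.71 ± 0.22 on the log2 scale (adjusted p = 0.0196, edgeR). Rps3a2, annotated as a processed pseudogene, rose in males by 0.55 ± 0.16 (adjusted p = 0.00814, edgeR), from 1.07 to 1.95 CPM up to 2.08 to 2.56 CPM. Such copies are nearly identical to their parent genes, and read pairs that align to several places were not counted. The levels of the copies rest on the pairs that were placed uniquely, so these 2 rises are uncertain. Rpl37rt did not pass in either sex (0.37 ± 0.19 in males), and Rpl6l was too low to be tested.

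None of the 5 paralogs passed in males, where their log2 fold changes ran from -0.26 to 0.16, with 2 above 0 and 3 below. Whether they differ from the core genes was not tested. Rpl3l, the form of Rpl3 known from striated muscle, was the more abundant of its pair, with 384 CPM per kilobase in male VEH mice where Rpl3 had 43.9. It made up 87.6% to 91.4% of the pair in male VEH mice and 85.4% to 92.0% in male CORT mice. In females it was 80.7% to 89.7% with vehicle and 71.2% to 89.1% with corticosterone, so that the groups overlapped in both sexes. Neither gene passed: the log2 fold change of Rpl3l was -0.08 ± 0.13 in males and -0.09 ± 0.14 in females, and that of Rpl3, a protein at the peptidyl transferase center, was 0.01 ± 0.16 and 0.36 ± 0.17. Rpl3l begins 5891 bases past the end of Rps2 on chromosome 17, on the same strand. The core gene with the largest rise in males and a paralog that did not pass in either sex are thus close neighbors.

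Rpl7l1, which acts in ribosome assembly, had 36.5 to 43.2 CPM in male VEH and 34.0 to 39.0 CPM in male CORT mice. Its log2 fold change of -0.15 ± 0.07 did not pass (adjusted p = 0.0831, edgeR), and all 6 CORT males lay below the VEH mean. As a share of the pair with Rpl7, per kilobase, it was 5.17% to 6.75% in male VEH and 3.81% to 4.86% in male CORT mice, without overlap. In females the same share was 4.91% to 5.92% and 4.69% to 7.07%. For Rps27l the share of the pair with Rps27 was apart in females, with 19.7% to 22.6% in VEH and 13.3% to 17.1% in CORT mice, and overlapped in males, with 16.2% to 21.5% and 12.5% to 17.7%. These shares were not tested.

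Rpl22l1, which stands near the level of Rpl22 per kilobase (59.1 and 65.1 over all mice), did not pass in males (0.13 ± 0.14) or females (0.36 ± 0.14, adjusted p = 0.0653, edgeR). Rps4l, a copy of the X-linked Rps4x annotated as a transcribed processed pseudogene, had 2.34 to 4.30 CPM in male VEH and 1.76 to 3.70 CPM in male CORT mice. In female CORT mice it ranged from 2.02 CPM in F4 to 8.65 CPM in F6. Its log2 fold changes of -0.26 ± 0.29 in males and 0.72 ± 0.30 in females did not pass.

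**Figure D3:**
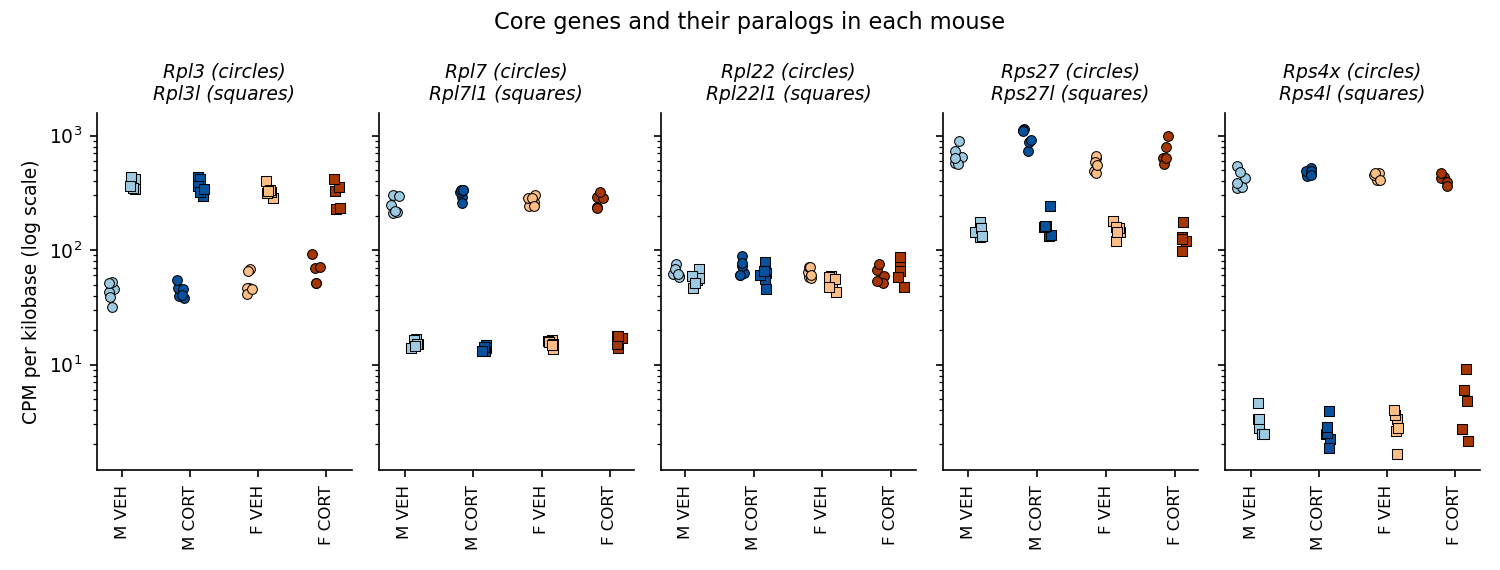
Level of 5 core genes (circles) and their paralogs (squares) in each mouse, in CPM per kilobase of transcript on a log scale, for male (M) and female (F) VEH and CORT mice. Rpl3l lies above Rpl3 in all 23 mice, Rpl22l1 lies close to Rpl22, and Rpl7l1, Rps27l and Rps4l lie below their core genes.

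In females none of the 84 genes passed in either direction, where 13.4% of all genes did (edgeR, adjusted p under 0.01). DESeq2 called 5 genes higher, among them Rplp0, Rps2 and Rpsa, where it called 1333 of all 13049 genes higher. With limma-voom 0 passed, where 1424 of all genes were higher. At an unadjusted p under 0.05, 20 genes were higher, near the background of 21.8% of all genes, and 0 were lower, where the background was 16.8%. The median log2 fold change was 0.13 beside 0.04 over all genes tested. The estimate was positive in 66 genes, beside 54.7% of all genes tested. In 4 genes every CORT female lay above every VEH female, beside a background of 3.38%: Rplp0, Rpsa, Rps19 and Rps27rt. Rps19, whose human counterpart is mutated in Diamond-Blackfan anemia, had 107 to 143 CPM in female VEH mice and up to 184 CPM in CORT females, with 146 CPM as the lowest. Its log2 fold change was 0.42 ± 0.12 (adjusted p = 0.0135, edgeR). The female median rested on F8: without it the median log2 fold change was 0.02.

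The sexes were then compared directly. The sex by treatment interaction, which shares all mice with the comparisons above, passed for 0 of 84 genes (edgeR, background 0.690% of all genes). It passed for 2 genes with DESeq2, which over all 13049 genes called 422 positive and 474 negative. With limma-voom it passed for 0, beside 188 positive and 505 negative over all genes. At an unadjusted p under 0.05 it held for 15 genes beside a background of 32.1%. The interaction was positive, a larger log2 fold change in males, in 77 genes, beside 45.8% of all genes tested. Because the genes moved together within a mouse, these 77 signs are not independent. The median interaction was 0.19 beside -0.05 over all genes. Scaling by total gene counts instead of TMM moved the median over all genes from -0.05 to -0.18, and that of the ribosomal protein genes to 0.09. The smallest adjusted p belonged to Rpl7a (0.53 ± 0.14, adjusted p = 0.0209, edgeR) and Rpl4 (0.48 ± 0.14, adjusted p = 0.0339), the pair that DESeq2 called. All 30 genes that rose in males have their own female estimates, from -0.04 to 0.71 with a median of 0.25, and 29 of these were positive.

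**Figure D4:**
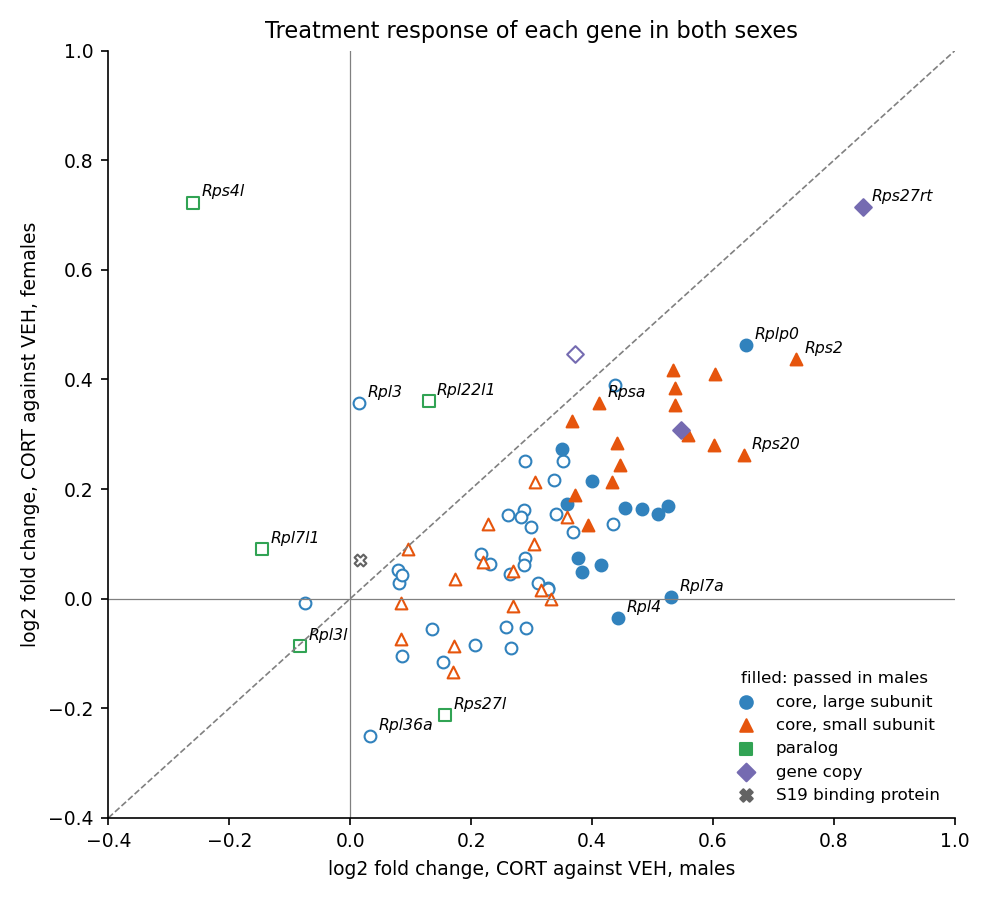
Log2 fold change of CORT against VEH for each of 84 genes in males (x axis) and females (y axis), by kind of gene, with filled symbols for the 30 genes that passed in males. The dashed line marks equal values, and 77 genes lie below it. The paralogs Rps4l, Rpl7l1 and Rpl22l1 and the core gene Rpl3 lie above it.

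Between male and female VEH mice 0 of 84 genes passed (edgeR, background 0.958%), and 0 with DESeq2 and limma-voom. At an unadjusted p under 0.05 there were 2 beside a background of 13.2%, Rpl13a and Rps2, both with the lower estimate in males. Between male and female CORT mice 3 genes were higher in males, Rpl4, Rpl7a and Rps14, and 1 was lower, Rpl3, where 23.3% of all genes passed in either direction. Rps14, a protein of the small subunit platform, had 301 to 435 CPM in male CORT mice and 234 to 334 CPM in female CORT mice, a log2 difference of 0.47 ± 0.13 (adjusted p = 0.00646, edgeR). Rpl3 had 51.2 to 74.0 CPM in male CORT mice, and 69.0 to 126 CPM (median 93.9) in female CORT mice, a log2 difference of -0.60 ± 0.17 (adjusted p = 0.00733, edgeR). The groups overlapped for both genes. None of the 4 calls held in all 34 other analyses: with the adipocyte marker level as a covariate 0 genes passed, and without F8 11 did. Over all 13049 genes, 385 were higher and 313 lower in males with that covariate, and 1440 and 2302 without F8.

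Other genes of ribosome production were counted from lists of their own. The lists were not tested as sets, and their counts stand beside the same background as above, 13.2% of all genes higher and 13.1% lower in males and 13.4% in either direction in females. Nothing is read from counts of 3 or fewer genes. The naming rule misses 3 listed ribosomal protein genes, of which 2 rose in males, Rack1 and Fau, and 0 passed in females. The male log2 fold changes of Rack1 and Fau were 0.47 ± 0.10 and 0.37 ± 0.09 (adjusted p = 0.000699 and 0.00294, edgeR). Ribosome biogenesis factors, which process ribosomal RNA and assemble the subunits in the nucleolus, rose in 20 of 44 genes and fell in 0 in males, with a median log2 fold change of 0.24. In females 0 rose and 1 fell, Mrto4, an assembly factor for the stalk (-0.29 ± 0.08, adjusted p = 0.00649, edgeR), with a median of -0.05. Of RNA polymerase I and its factors, which transcribe ribosomal RNA, 5 of 14 rose in males and 0 passed in females. Taf1c, a subunit of the promoter selectivity factor SL1, rose in males by 0.70 ± 0.09 on the log2 scale (adjusted p = 4.56e-06, edgeR), and its female log2 fold change was -0.05 ± 0.09. Its interaction of 0.74 ± 0.13 was the only one to pass among these lists (adjusted p = 0.00618, edgeR).

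Cd3eap, a subunit of RNA polymerase I, rose in males by 0.65 ± 0.10 (adjusted p = 4.36e-05, edgeR). Of a list of 9 genes of translation elongation, 4 rose in males, Eef1b2, Eef2, Eef2k and Tpt1, and 0 passed in females. Eef2k, the kinase that inhibits elongation factor 2, rose in males by 0.77 ± 0.16 (adjusted p = 0.000816, edgeR), and Eef2 itself by 0.49 ± 0.11. Of 9 genes that escort ribosomal proteins to the nucleus and into the ribosome, 1 rose in males, Ipo7.

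Among 13 regulators of ribosomal protein synthesis, 2 rose and 3 fell in males and 0 rose and 3 fell in females. Tia1, which binds messenger RNAs with a pyrimidine tract under stress, fell in both sexes, by 0.65 on the log2 scale in males (SE 0.09, adjusted p = 5.75e-06, edgeR) and by 0.46 in females (SE 0.09, adjusted p = 0.000985). Rps6ka1, an S6 kinase of the RSK family, fell from a mean of 9.72 to 4.85 CPM in males and from 11.4 to 5.04 CPM in females (adjusted p = 0.0095 and 0.00833, edgeR). Larp4b fell in males, and Maf1, a repressor of RNA polymerase III, fell in females by 0.35 (SE 0.08, adjusted p = 0.00457, edgeR). Ribosomal proteins of the mitochondria, a separate ribosome, rose in 0 and fell in 8 of 77 genes in males, near the background of 13.1% lower, with a median log2 fold change of -0.12, and 0 passed in females.

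**Figure D5:**
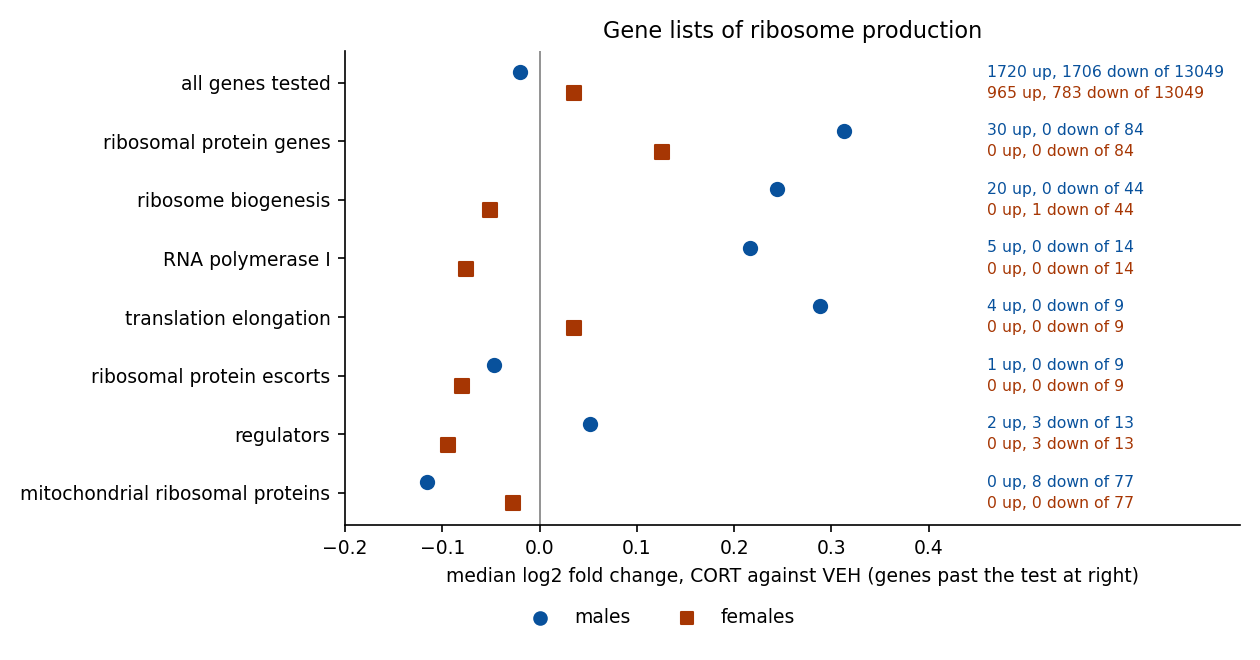
Median log2 fold change of CORT against VEH over each list of genes in males (circles) and females (squares), with the number of genes higher and lower past the edgeR test at the right. In males the ribosomal protein genes stand at 0.31, ribosome biogenesis factors at 0.24 and mitochondrial ribosomal proteins at -0.12, and in females the medians lie between -0.09 and 0.13.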

How the data were processed

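Read pairs were aligned by the authors with STAR 2.7.3a to mm10, and pairs falling on 1 gene were counted with HTSeq 0.12.4, by strand, on the annotation of Ensembl release 97. The deposited values are these raw counts of 23 mice. The 5 entries for unassigned pairs were left out of all steps. Gene names, positions and transcript lengths came from GENCODE M21, which matched 55480 of 55573 gene IDs.

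The 13049 genes whose normalized count exceeded 20 in 4 or more mice of any group were tested with the quasi-likelihood test of edgeR 4.0.16 in R 4.3.3: TMM factors, 1 mean for each of the 4 groups, Benjamini-Hochberg adjustment over all genes tested, and a threshold of 0.01. Each SE was derived from the same test, as the size of the log2 fold change divided by the square root of the F statistic. The scripts were tested on simulated data. DESeq2 1.42.0, voom weights in limma 3.58.1, other scalings and filters, 23 fits that each left out 1 mouse, and the slow fiber and adipocyte marker levels as covariates, added after seeing the data, served as alternatives.

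The genes, the lists and the kinds of genes were chosen with earlier results of these data known. Named are the paralog pairs, the stalk and laminin receptor genes, the 5S particle genes and Rps6, the 8 largest rises and falls per sex past the threshold, up to 5 genes past it with the smallest p in each comparison of the sexes, the 5 highest and lowest levels per kilobase, and the 3 largest rises and falls per sex from the other lists. Other genes were named after their values were seen. A few genes that these choices admit are left unreported. Mice were grouped by their labels. Each sample is 1 mouse, and no pair of replicates agreed within sampling noise.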

Additional observations from a re-analysis of the deposited data

Results flagged for a closer look

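In each group, the levels of the named genes and the family total were searched for 1 mouse set apart by a wide gap. The gap was judged against the group's range. It was found in 4 of 144 group levels, fewer than the about 1 in 20 that chance would give. Rps2 stood at 1121.7 CPM in M4, and at 816 to 889 CPM in the other male CORT mice. Rps27l stood at 121.26 CPM in M8, the male CORT mouse with the highest hepatocyte marker level, and at 65.8 to 81.2 CPM in the others. Rps28 stood at 180.75 CPM in the VEH male M3, and at 106 to 133 CPM in the others. Rps3a2 stood at 2.5623 CPM in the male CORT mouse M10, and at 2.08 to 2.25 CPM in the others. Outside the family, the response of Taf1c, a factor of RNA polymerase I, differed between the sexes in the test of that difference itself, with an interaction of 0.74 on the log2 scale (adjusted p = 0.00618, edgeR).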

How the results depend on the processing

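In males the count of 30 genes was 17 to 45 under the alternatives that kept all mice and the same call rule (17 without a filter beyond 1 count, 20 with total gene counts, 39 with DESeq2, 45 with limma-voom), 22 without M8 and F10, and 20 to 42 when 1 mouse at a time was left out. The count over all genes moved too. It was 1720 of 13049 higher in the main analysis and 1368 of 31922 without the filter. Of 13049 genes, 1085 were higher with total gene counts, 2044 with DESeq2, 2060 with limma-voom and 1521 without M8 and F10. When a log2 fold change beyond 1 was also asked for, it was 0, and so was the count in each of the other comparisons. In females the count of 0 became 5 with DESeq2 and 4 with total gene counts, and was 0 to 1 with 1 mouse left out (1 without M3, M9, M12, F4 or F5). Over all genes, 1333 were higher in females with DESeq2 and 815 with total gene counts. The interaction passed for 2 genes with DESeq2 and for 0 to 1 with 1 mouse left out (Rpl7a, without F8). Over all genes, 235 positive and 658 negative interactions passed without F8. Between CORT males and females the count of 4 became 2 without the filter, 1 without M8 and F10, 0 with the adipocyte marker level, and 1 to 11 with 1 mouse left out (1 without M4, F6 or F10, 2 without M6, 11 without F8). Over all genes, the main analysis called 1215 higher and 1828 lower in CORT males. These became 1061 and 1300 of 31922 without the filter, and 615 and 767 without M8 and F10. With the adipocyte marker level they were 385 and 313, and without F8 1440 and 2302. For that comparison, total gene counts moved the median over all genes from -0.03 to -0.21 and that of the ribosomal protein genes from 0.16 to 0.00. Among VEH mice the count stayed at 0. The causes were not tested. No estimate of a gene that passed changed sign.

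With a replicate block on the mouse numbers that the sexes share, 2 genes passed between CORT males and females, 0 among VEH mice and 0 for the interaction. Over all genes, 1143 were higher and 1119 lower in CORT males with that block. The mouse numbers share no stated link, and the correlation of same-numbered mice ran from -0.377 to 0.477. No paired analysis of treatment was possible because VEH mice have odd and CORT mice even numbers.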
